A study of Homo sapiens with 2 samples.

Results

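The SUMO pathway genes described here were 8 of the 50868 genes in the deposited tables: RNF4, RNF111, SUMO2, SUMO3, SAE1, UBA2, PML and SENP1. They were found by exact gene name, and each had a single entry. The genes were chosen by the ratio of resistant to parental expression and by function: RNF4 was picked because its level in the resistant library was among the lowest relative to the parental library, and the other 7 for their place in the same pathway, so the values below are a description and no test is built on them. The study compared a sorafenib-resistant culture with its untreated parental culture, both labelled HepG2, a human liver cancer line, with no genetic change named. The resistant culture had been grown in sorafenib, an inhibitor of several kinases used in liver cancer, starting at 2.5 µM and raised by 0.5 µM at a time until 7 µM. There was a single library for either culture, so no value has an SD. Whether the resistant cells are 1 clone is not known from the labels.

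SUMO is a small protein that cells attach to lysines of other proteins, much as they attach ubiquitin. An activating enzyme (E1), made of the subunits SAE1 and UBA2, starts its attachment, often helped later by a ligase, and SENP proteases remove it again. SUMO2 and SUMO3 can form chains, and the ligases RNF4 and RNF111 read SUMO and place ubiquitin on the modified protein. PML, the scaffold of the nuclear bodies that carry its name, is the best known substrate of RNF4.

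RNF4 stood apart from the other 7 genes. It had 282 counts in the resistant library and 1469 counts in the parental library. Among the remaining 7 genes, the level in the resistant library was 0.896 to 1.06 times that in the parental library. RNF4, 1 gene of 8, had a log2 ratio of at most -1, as did 0.994% of all 14686 measured genes, but RNF4 had been picked for it. None of the 8 reached a log2 ratio of 1, against 1.31% of measured genes. Because RNF4 shares exons with other genes, the share was also taken over the 12630 measured genes that share none, of which 0.776% were lower. A gene was called measured when its larger CPM (the count scaled to library size with TMM factors) was at least 1, which held for 8 of 8. The log2 ratio is that of resistant over parental CPM after adding 1 to each.

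The resistant library held 16811907 counts over 21742 genes, and the parental library 18067146 over 21623. A count of 0 allowed up to 0.179 CPM in the resistant and 0.166 CPM in the parental library, the worth of 3 counts. These limits and the 95% Clopper-Pearson intervals below cover counting error only, since there is 1 library per culture. Copies made by PCR are not independent molecules, so the intervals may be too narrow even for counting error. Of 10 hepatocyte markers, 9, among them ALB and AFP, had 0 counts in both libraries, and HNF4A had 2 in each, so the label HepG2 is not borne out by these markers. Among markers of other cell types, 4 of 6 simple epithelial genes were measured, with KRT7 at 2516 CPM in the resistant and 1892 CPM in the parental library. KRT8 was at 817 CPM in the resistant and 799 CPM in the parental library. For KRT18 the levels were 670 CPM in the resistant and 547 CPM in the parental library. In that list EPCAM was at 0 in both, KRT19 had 12 counts in the resistant and 14 in the parental library, and CDH1 had 20 in the resistant and 5 in the parental library, at 4.32-fold. The 6 genes summed to 4005 CPM in the resistant and 3238 CPM in the parental library. The 7 fibroblast markers summed to 403 CPM in the resistant and 397 CPM in the parental library. Most of this was COL3A1, at 195 CPM in the resistant and 217 CPM in the parental library, and COL1A1. COL1A1 was at 156 CPM in the resistant and 142 CPM in the parental library. COL1A2 and PDGFRA were at 0 in both, LUM at 2.51-fold, DCN at 1.25-fold and PDGFRB at 1.20-fold. The 7 blood and endothelial markers summed to 14.3 CPM in the resistant and 7.62 CPM in the parental library. Most of this was CD68, with 156 counts in the resistant and 98 in the parental library. PTPRC and CD3E were at 0 in both, and CDH5 was at 3.89-fold. In the resistant library PECAM1 had 7 counts, CD14 5 and VWF 0, and in the parental library PECAM1 had 8, CD14 7 and VWF 5. The part of these marker differences in the values below was not tested. Because the RNA is from whole cultures, fewer cells with a transcript and less of it per cell cannot be told apart.

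The sequences that bear on how the counts can be read are shown first. RNF4 and SUMO2 both have processed pseudogenes, copies of the spliced mRNA elsewhere in the genome, that carry their own rows in the deposited tables. The coding sequence of RNF4 (transcript RNF4-201, chromosome 4, plus strand, GENCODE 29 on GRCh38) is given for its first 300 bases, in capitals where the pseudogene AL732414.1 on chromosome 1 has another base.
RNF4: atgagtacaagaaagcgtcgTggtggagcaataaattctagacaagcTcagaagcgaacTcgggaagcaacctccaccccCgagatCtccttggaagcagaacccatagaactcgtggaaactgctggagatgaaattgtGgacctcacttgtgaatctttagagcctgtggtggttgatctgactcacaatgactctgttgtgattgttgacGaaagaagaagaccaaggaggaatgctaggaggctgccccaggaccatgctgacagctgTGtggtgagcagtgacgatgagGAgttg
The stretch holds 11 differences. Over the whole coding sequence with its stop codon, gene and pseudogene are both 573 bases long and share 546 of them (95.3%), and the longest stretch without a difference is 72 bases. The parent sequence of SUMO2 is followed by the pseudogenes AC005000.1 and SUMO2P1, in capitals where they depart from it.
SUMO2: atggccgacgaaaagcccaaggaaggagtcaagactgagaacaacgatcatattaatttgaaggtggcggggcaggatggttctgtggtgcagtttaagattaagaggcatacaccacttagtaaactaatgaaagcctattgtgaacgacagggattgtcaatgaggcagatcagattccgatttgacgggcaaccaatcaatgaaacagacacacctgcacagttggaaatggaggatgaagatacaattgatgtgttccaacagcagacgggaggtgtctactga
AC005000.1: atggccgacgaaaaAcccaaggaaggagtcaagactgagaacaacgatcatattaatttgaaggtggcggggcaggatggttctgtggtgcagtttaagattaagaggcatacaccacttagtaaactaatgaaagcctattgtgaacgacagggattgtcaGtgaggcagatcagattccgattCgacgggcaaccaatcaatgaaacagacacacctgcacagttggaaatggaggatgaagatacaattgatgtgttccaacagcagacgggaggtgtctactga
SUMO2P1: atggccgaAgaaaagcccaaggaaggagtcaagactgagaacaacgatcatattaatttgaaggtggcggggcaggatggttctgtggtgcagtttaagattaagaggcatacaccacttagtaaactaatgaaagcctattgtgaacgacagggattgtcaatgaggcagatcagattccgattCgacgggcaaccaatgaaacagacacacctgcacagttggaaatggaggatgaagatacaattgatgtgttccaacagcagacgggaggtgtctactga
AC005000.1 (chromosome X, 115718942 to 115719229) departs from SUMO2 at 3 of 288 bases, and SUMO2P1 (chromosome 6, 29636060 to 29636343) at 2, with 4 bases absent. Stretches of 147 and 176 bases are identical to SUMO2. The SUMO3 coding sequence, in capitals where it departs from SUMO2, is shown for its first 300 bases as a measure of how far apart the genes of this pair are.
SUMO3: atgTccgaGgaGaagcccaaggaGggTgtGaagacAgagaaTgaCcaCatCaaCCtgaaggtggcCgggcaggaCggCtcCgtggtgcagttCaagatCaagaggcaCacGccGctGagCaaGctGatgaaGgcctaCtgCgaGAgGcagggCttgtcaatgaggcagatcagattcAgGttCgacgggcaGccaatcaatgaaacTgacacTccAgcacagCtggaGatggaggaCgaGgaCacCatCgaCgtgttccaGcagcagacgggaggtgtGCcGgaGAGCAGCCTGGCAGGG
Over their whole coding sequences, SUMO3 and SUMO2 share 81.7% of aligned bases, with no identical stretch beyond 24 bases.

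RNF4 (ENSG00000063978; chromosome 4, 2462220 to 2625320 on the plus strand, GRCh38) encodes a RING ubiquitin ligase that binds SUMO chains. Its level was 16.8 CPM in the resistant library and 81.1 CPM in the parental library, 4.82-fold lower (95% interval 4.24 to 5.49) with a log2 ratio of -2.20. Of the 14686 measured genes, 12 had a lower ratio. By count, RNF4 ranked 8822 among all genes in the resistant library and 3055 in the parental library. In the authors' deposited table its log2 fold change was -2.28 and it was called DOWN, as were 1.03% of the 21518 genes compared there. No call was attached to the other 7 genes, and 1.26% of the genes compared were called UP. The table was made from these same libraries.

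**Figure D1:**
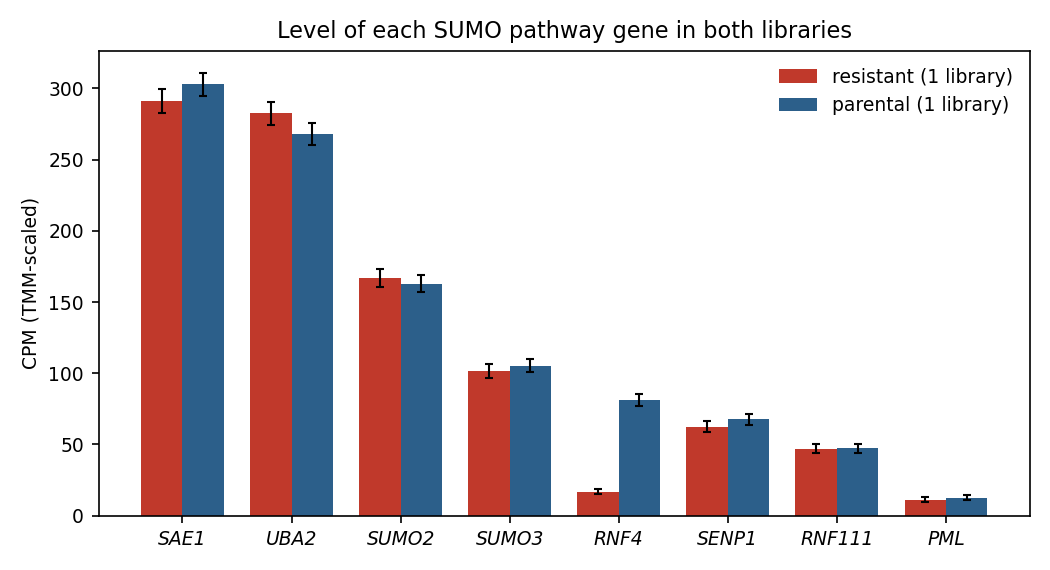
Level of the 8 genes in CPM (vertical axis), in the resistant library (red, left) and the parental library (blue, right). Bars are 1 library each, with exact 95% Poisson intervals of the count. RNF4 stands at 16.8 CPM in the resistant and 81.1 CPM in the parental library, whereas the bars of each other gene are nearly level.

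The RNF4 gene model overlaps the ends of neighbours on the same strand, so its counts were also read together with theirs. Its transcript RNF4-201 has 8 exons that end at 2515855. A read-through transcript, RNF4-210, annotated as a target of nonsense-mediated decay, runs on to 2625320 and shares 246 bases in its exon 4 and 59 bases in its exon 5 with FAM193A as GENCODE 29 draws it. In the deposited coordinates FAM193A starts at 2625261, so that exon 4 lies outside it. At the other end, exon 1 of the transcript RNF4-204 shares 163 bases with CFAP99. FAM193A (chromosome 4, 2625261 to 2732565 in the deposited tables) had 600 counts in the resistant and 608 in the parental library, and CFAP99, a cilia and flagella associated gene, had 5 in the resistant and 2 in the parental library. Summed over the 3 genes, the locus had 887 counts in the resistant and 2079 in the parental library, 2.17-fold lower (2.003 to 2.35) with a log2 ratio of -1.10. With deposited FPKM in place of CPM, the log2 ratio of the sum was -0.79, inside the limit of -1.

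FAM193A itself had a log2 ratio of 0.09. At the depth of the parental library, the resistant RNF4 count would be 305, a difference of -1164 from the parental count of 1469. On the same scale, FAM193A was 40.6 counts above its parental count and CFAP99 3.4 counts above. The gain of the overlapping genes was smaller than the deficit of RNF4. Reads given to no gene would not appear in these counts. Whether reads were divided differently within the locus was not tested. The pseudogene AL732414.1 had 1 count in the resistant and 6 in the parental library, so adding it to RNF4 left the log2 ratio at -2.20. Other genes nearby did not show the ratio of RNF4. The nearest measured protein-coding genes had log2 ratios of -0.37 (MXD4) and -0.16 (ZFYVE28) at lower coordinates, and 0.09 (FAM193A) and 0.15 (TNIP2) beyond RNF4.

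**Figure D2:**
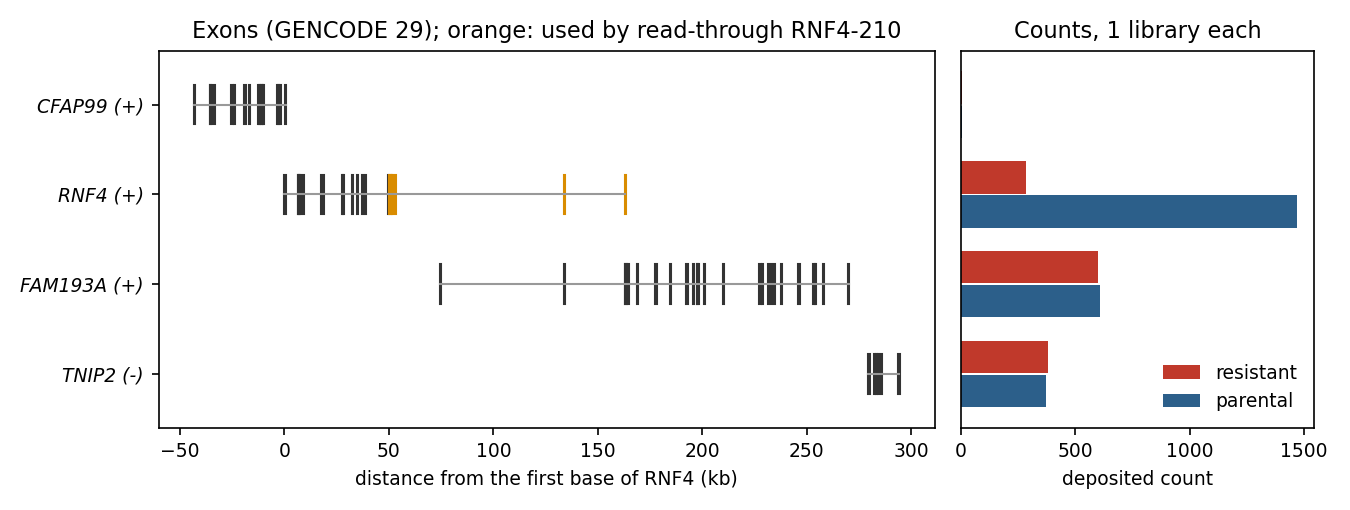
Left, exons of RNF4 and 3 genes near it by distance from the first base of RNF4 in kb. Short exons are drawn wider than scale so that they can be seen. RNF4 exons overlapping the read-through transcript are in orange, while the FAM193A exons that overlap it are drawn dark. Right, deposited counts on a linear axis from 0: RNF4 has 282 in the resistant (red, upper) and 1469 in the parental library (blue, lower), while FAM193A has 600 in the resistant and 608 in the parental library.

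Among the measured protein-coding genes that share no exons with another gene, 4 lay nearest to RNF4 in the plane of log2(CPM + 1) of both libraries. These were RBMS2 at a distance of 0.23, PEAK1 at 0.44, TMEM164 at 0.50 and AKR1C1 at 0.50. The likeness rests on 2 values per gene. RBMS2, which encodes an RNA-binding protein, had 334 counts in the resistant and 1483 in the parental library. AKR1C1 belongs to a family of near-identical aldo-keto reductases, which makes its count uncertain.

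The second SUMO-targeted ligase, RNF111, also called Arkadia and known for its role in TGF-beta signalling, had 788 counts in the resistant and 856 in the parental library. That is 47.0 CPM in the resistant and 47.2 CPM in the parental library, at 0.995-fold (0.902 to 1.10). The 2 ligases thus changed places per length. In deposited FPKM, which also divides by gene length, RNF111 stood at 2.49 and RNF4 at 1.19 in the resistant library, while in the parental library RNF111 stood at 2.52 and RNF4 at 5.76. RNF111 was at 2.09 times the FPKM of RNF4 in the resistant and 0.437 times in the parental library. The gene length implied by the deposited FPKM was 14115 bases for RNF4, above the 7270 bases of its merged annotated exons. With merged exon lengths in its place, the same quotient was 2.83 in the resistant and 0.59 in the parental library. Of 59 measured genes whose symbol is RNF and a number, a set taken after the values were seen, 1 was past a log2 ratio of -1 or 1, RNF4 itself, where 2.30% of all measured genes were. The others lay between -0.67 (RNF157) and 0.83 (RNF24).

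The modifiers themselves were nearly level. SUMO2 (chromosome 17, 75165586 to 75182983, minus strand) had 2794 counts in the resistant and 2950 in the parental library, or 167 CPM in the resistant and 163 CPM in the parental, at 1.02-fold (0.972 to 1.08). SUMO3 (chromosome 21, 44805617 to 44818779, minus strand) had 1705 counts in the resistant and 1909 in the parental library, at 0.965-fold (0.904 to 1.03). Both intervals include 1. In FPKM, SUMO2 was at 1.36 times SUMO3 in the resistant and 1.29 times in the parental library. SUMO4 had 0 counts in the resistant and 3 in the parental library, at or under the worth of 3 counts in both.

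Copies of SUMO2 also carried counts. Of 25 rows described as SUMO2 pseudogenes, 5 had a count. SUMO2P1 had 325 counts in the resistant and 345 in the parental library, and AC005000.1, whose sequence is printed above beside it, had 310 in the resistant and 327 in the parental library. SUMO2P3 and SUMO2P6, which share 96.2% and 96.5% of bases with SUMO2, had fewer: 64 and 73 in the resistant library, and 90 and 85 in the parental library. Among these 4 copies, the ones whose sequences were compared, the 2 closest to SUMO2 held the most counts. Copies made up 21.8% of the summed SUMO2 counts in the resistant and 22.4% in the parental library. The sum had 3572 counts in the resistant and 3801 in the parental library, with a log2 ratio of 0.02, against 0.03 for SUMO2 alone. Whether the copies are transcribed or take reads of SUMO2 was not tested. SUMO2 also shares 48 exon bases with JPT1 on the same strand, which had 1450 counts in the resistant and 1571 in the parental library.

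**Figure D3:**
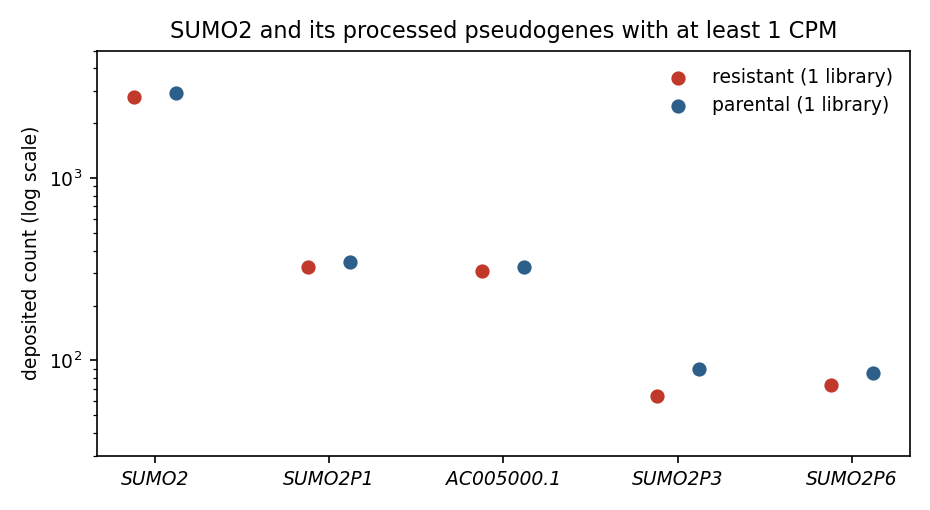
Deposited counts of SUMO2 and its 4 measured processed pseudogenes on a log axis, resistant library in red on the left and parental library in blue on the right, 1 library each. SUMO2P1 and AC005000.1 stand between 310 and 345 counts in both libraries, and SUMO2P3 and SUMO2P6 at 64 to 90.

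The subunits of the activating enzyme were the most abundant of the 8 genes by count. SAE1, which encodes the smaller subunit, had 4880 counts in the resistant and 5487 in the parental library, at 0.961-fold (0.925 to 0.9994). UBA2, the catalytic subunit gene, had 4738 counts in the resistant and 4852 in the parental library, at 1.06-fold (1.01 to 1.10). These 2 intervals just miss 1, in opposite directions, and neither covers variation between cultures. Per length the subunits were close in the deposited FPKM, with SAE1 at 36.6 and UBA2 at 37.6 in the resistant library, and SAE1 at 38.3 and UBA2 at 35.8 in the parental library. That closeness depends on the length used. With merged exon lengths SAE1 was at 1.46 times UBA2 in the resistant and 1.60 times in the parental library.

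SENP1, a protease that matures SUMO precursors and takes SUMO off proteins, had 1044 counts in the resistant and 1224 in the parental library, at 0.922-fold (0.848 to 1.002). Its exons overlap those of PFKM on the opposite strand by 628 bases. PFKM had 2871 counts in the resistant and 3432 in the parental library, and the labels do not say whether counting used strand. Summed over both strands, SENP1 and PFKM were at 0.909-fold (0.871 to 0.949), with most of the counts from PFKM. PML had the fewest counts of the 8 genes in either library, 189 in the resistant and 228 in the parental, or 11.3 CPM in the resistant and 12.6 CPM in the parental library. Its fold of 0.896 has the widest relative interval among the 7 genes besides RNF4 (0.735 to 1.09), so a difference smaller than that interval was not detectable at this depth. In FPKM, PML stood at 0.455 in the resistant and 0.511 in the parental library, the lowest of the 8 in both.

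Over the 8 genes, 6 log2 ratios were negative and 2 positive, with a median of -0.05, against -0.0018 over all measured genes. The 7 genes other than RNF4 lay between -0.15 and 0.08, inside the middle 50% of measured genes, which ran from -0.15 to 0.16. For 5 of the 8, the interval of the fold included 1.

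**Figure D4:**
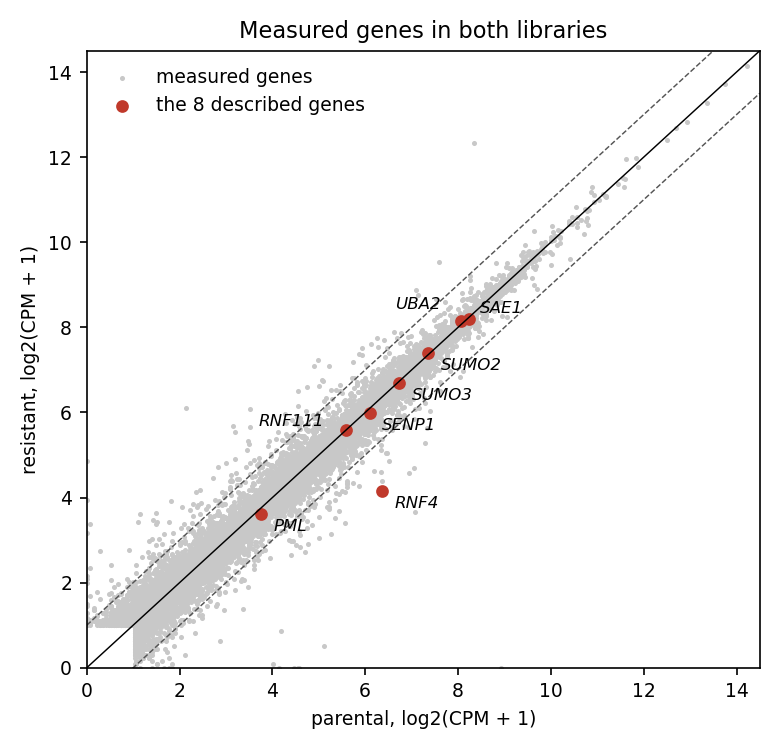
Measured genes (grey) and the 8 described genes (red) by log2(CPM + 1), resistant library on the vertical and parental library on the horizontal axis. The solid line marks equal levels and the dashed lines a log2 ratio of -1 and 1. RNF4 lies below the lower dashed line and the other 7 lie along the solid line.

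The wider pathway was set beside the 8 genes with 7 lists of 70 genes in all, which include the 8. Of these, 67 were measured, and RNF4 was the 1 gene past a log2 ratio of -1 or 1, where 2.30% of all measured genes were past it. The median log2 ratio over the 67 was -0.0069, and 29 were positive and 38 negative.

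The SUMO proteases were 0 of 9 past the size rule, with a median of 0.04. SENP2 was at 1.08-fold (0.996 to 1.17), SENP5 at 1.0003-fold (0.926 to 1.08), SENP6 at 0.896-fold (0.845 to 0.951) and SENP7 at 1.03-fold (0.888 to 1.19). DESI1 was at 0.977-fold (0.8997 to 1.06), DESI2 at 1.19-fold (1.11 to 1.27) and USPL1 at 1.03-fold (0.888 to 1.19). SENP3 had the largest ratio of the list, with 1916 counts in the resistant and 1606 in the parental library, at 1.29-fold (1.21 to 1.38). Its read-through partner SENP3-EIF4A1 had 1294 counts in the resistant and 1798 in the parental library, and the 2 together were at 1.02-fold (0.971 to 1.07). SENP3 alone therefore cannot be told apart from a different division of counts within that locus.

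The SUMO ligases and enhancers of conjugation were 0 of 14 past the size rule, with a median of -0.04. The largest absolute ratios were those of RWDD3, an enhancer of conjugation, at -0.45, NSMCE2, the ligase of the SMC5-SMC6 complex, at -0.24, and PIAS1 at 0.19. RWDD3 had 273 counts in the resistant and 411 in the parental library. Summed with its read-through partner TLCD4-RWDD3, it had a log2 ratio of -0.43.

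The genes that act with the SUMO-targeted ligases numbered 19, all measured, with RNF4 as the 1 past the size rule and a median of -0.0069. The following members were singled out after their values were seen. UBE2V1, a partner of the ubiquitin E2 UBE2N, had 1195 counts in the resistant and 742 in the parental library, with a log2 ratio of 0.79. Its read-through partner TMEM189-UBE2V1 had 459 counts in the resistant and 762 in the parental library, and the sum had a log2 ratio of 0.25. SLF1, which links RAD18 to the SMC5-SMC6 complex, had a log2 ratio of -0.40, with 3768 counts in the resistant and 5366 in the parental library. VCP, the ATPase that extracts ubiquitylated proteins, had 4483 counts in the resistant and 6000 in the parental library, with a log2 ratio of -0.31. The UBE2D enzymes, which supply ubiquitin to RNF4, were between 0.995-fold (UBE2D1) and 1.16-fold (UBE2D4).

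Constituents of PML bodies were 0 of 12 measured genes past the size rule, with a median of -0.03. UBN1, a subunit of the HIRA histone chaperone, had a log2 ratio of 0.54, with 1247 counts in the resistant and 921 in the parental library. SP140L was at -0.47, with 72 counts in the resistant and 115 in the parental library, and DAXX, the histone chaperone recruited to these bodies, at -0.42 with 863 counts in the resistant and 1253 in the parental library. SP100 was at 0.943-fold (0.790 to 1.13). SP110, with 11 counts in the resistant and 3 in the parental library, and SP140, with 0 in both, were not measured.

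RNF111 and the genes of its TGF-beta axis were 0 of 8 past the size rule, with a median of -0.05. SKIL, a repressor that RNF111 targets for degradation, had 1699 counts in the resistant and 2316 in the parental library, with a log2 ratio of -0.33. RNF165, the paralog of RNF111, was at 0.29, and SMAD7 at -0.19. SKI, the other repressor that RNF111 targets, was level at 0.996-fold (0.925 to 1.07).

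**Figure D5:**
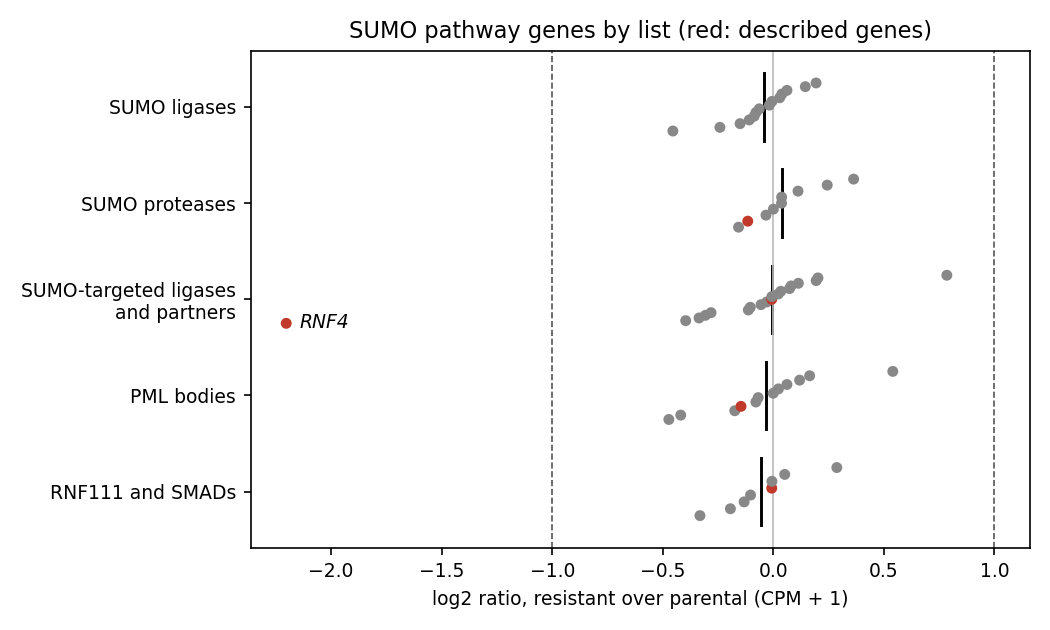
Log2 ratio of resistant over parental for each measured gene (points) of 5 of the lists, with the list median as a black line and dashed lines at -1 and 1. Red points are those of the 8 described genes that these lists hold, and RNF111, held by 2 lists, appears in both. RNF4 at -2.20 is the 1 point outside the dashed lines.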

How the data were processed

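Messenger RNA was sequenced from 1 resistant and 1 parental culture, grouped by the treatment label. The tools HISAT2 2.0.4, StringTie 1.3.0 and bcl2fastq 2.19 and the build GRCh38 are named in the submitters' processing notes. How counting was set, whether it used strand and which annotation release it followed are unknown from the labels. The authors deposited whole-number counts per gene and FPKM, per the file headers. By a check on the values, FPKM is proportional to the count, with the same constant per gene in both libraries. The authors also deposited a table with a log2 fold change, p-values and q-values. These p-values come from single libraries and were left unused.

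Counts were scaled to CPM with TMM factors (0.997 resistant, 1.003 parental) computed by edgeR 4.0.16 under R 4.3.3. No count model was run. Pseudocount 1 was used for log2 ratios and none for folds. Fold intervals are exact Clopper-Pearson intervals of the count ratio given the sum. A gene was past the size rule when measured with a log2 ratio of at most -1 or at least 1. With 1 library per group, no test was possible. The calculation was checked on simulated Poisson counts with set folds. These hold no variation between cultures, so the check covers the arithmetic only. Exons came from GENCODE 29 on GRCh38, which held 50111 of the 50868 identifiers, and 47527 had identical coordinates. The deposited start of FAM193A differs from it. Pseudogenes were found by description.

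The members and lists were chosen with earlier results of these data known. Named genes were the 8 members, genes sharing exons with them, the genes of the SUMO modifier, activation and protease lists, and per list those past the size rule or else the 3 largest absolute ratios, besides the neighbours and nearest genes of RNF4. Some genes under this rule are not reported here. Any other gene named was picked with its values in view. Alternatives were DESeq2 1.42.0 size factors, total counts, other pseudocounts and filters, deposited FPKM, and omission of mitochondrial counts.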

Additional observations from a re-analysis of the deposited data

How the results depend on the processing

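RNF4 kept a log2 ratio below -1 under all 8 alternative settings and with its pseudogene added (an alternative chosen after seeing the data), between -2.24 and -1.63. It moved beyond its counting interval with a pseudocount of 5 CPM (-1.98) and with deposited FPKM (-1.63), both of which weigh the added constant more. The RNF4 locus sum moved to -0.79 with deposited FPKM, within the size rule, where the values summed are per length. It was -1.10 when genes were taken by exons on either strand or by spans. Both of these sum the same 3 genes with counts, so that value could not differ. The other 7 genes stayed between -0.16 and 0.08 under every setting that gave a value (PML is below the filter in deposited FPKM), and 1 member was past the size rule in each. The CPM filters of 0.1 and 10 among these settings decide only which genes count as measured. They could not change the ratio of any single gene, RNF4 included. The counts over all genes, 146 lower and 192 higher, were 78 and 90 with deposited FPKM, 68 and 83 with a pseudocount of 5 CPM, 90 and 117 with a larger CPM of at least 10, and 218 and 285 with a pseudocount of 0.5 CPM. In the pathway lists, the number past the size rule was the same under each setting. No paired analysis was possible because each group has 1 library, and leaving out a library was impossible for the same reason. Depth limits PML most, and variation between cultures is not covered by any value here.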

Other observations

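The deposited gene ontology annotation gives a broader view that was taken after the values were seen. Of 107 measured genes with a term whose text mentions SUMO, 2 were lower and 2 higher by the size rule, with a median log2 ratio of 0.00036. The shares among all 14686 measured genes were 0.994% lower and 1.31% higher. Besides RNF4, TOLLIP, an adaptor of innate immune receptors, had 201 counts in the resistant and 478 in the parental library, 2.2-fold lower (1.86 to 2.61). TDG, a thymine DNA glycosylase that is itself modified by SUMO, had 1310 counts in the resistant and 687 in the parental library, at 2.06-fold (1.88 to 2.26). MAGEA2B, one of a near-identical family, had 96 counts in the resistant and 42 in the parental library and is uncertain.

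Of 84 measured genes annotated to the PML body, 1 was lower, RNF4, and 3 were higher. These were TDG, MAGEA2B and MAX, the partner of MYC, with 848 counts in the resistant and 412 in the parental library, at 2.22-fold (1.98 to 2.51). Over all measured genes, 0.994% were lower and 1.31% higher.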
